A study of Homo sapiens with 6 samples.

Results

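The miR-548 family was followed in K562 cells, a human erythroleukaemia line, that were either sensitive or resistant to azacitidine. Its members were taken as every row of the deposited miRNA count table whose name starts with hsa-miR-548, which gave 81 of the 2656 rows. The sensitive group was K562 in its original state, and the resistant group was derived from it by months of growth in rising azacitidine, a cytidine analogue that traps DNA methyltransferases. Each group had 3 libraries named as biological replicates, with no mention that resistance was selected more than once, so p-values measure the spread between these libraries and may not cover that between selections. Both groups were grown in the same medium. Every library name, in both groups, ends in the tag NT, whose meaning is not given. The labels do not otherwise say whether the medium held azacitidine when cells were taken.

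miRNAs are short RNAs cut from hairpin precursors, and either side of a hairpin, the 5p or the 3p arm, can yield a mature miRNA. Bases 2 to 8 of the mature miRNA, the seed, guide it to messenger RNAs. The miR-548 family is a primate family whose hairpins derive from MADE1 elements, short mariner-type DNA transposons with inverted ends that fold on themselves. Copies of MADE1 lie in many introns and between genes, so many members of the family are near-identical in sequence.

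RefSeq sequences (GRCh38.p14) were matched by name for 55 of the 81 members, which held 53 distinct sequences and 29 distinct seeds. The members shown here are those on which the results turn, printed 5′ to 3′ with the seed in capitals. The first 7 are all the matched 3p members with the seed of miR-548x-3p, the member with most counts in each sensitive library. They share the seed and differ after it or at the first base.
miR-548x-3p: uAAAAACUgcaauuacuuuc
miR-548aj-3p: uAAAAACUgcaauuacuuuua
miR-548ae-3p: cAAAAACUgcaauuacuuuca
miR-548aq-3p: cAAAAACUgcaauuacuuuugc
miR-548j-3p: cAAAAACUgcauuacuuuugc
miR-548am-3p: cAAAAACUgcaguuacuuuugu
miR-548ah-3p: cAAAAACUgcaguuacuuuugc

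The next sequence belongs to 3 members at once, miR-548x-5p, miR-548g-5p and miR-548aj-5p, whose mature sequences are identical. The last 3 are miR-548o-3p, the member with most counts in each resistant library, and miR-548bb-5p and miR-548y, 2 members with few counts.
miR-548x-5p, miR-548g-5p and miR-548aj-5p: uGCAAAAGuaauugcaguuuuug
miR-548o-3p: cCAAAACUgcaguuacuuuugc
miR-548bb-5p: aAAAGUAAcuaugguuuuugcc
miR-548y: aAAAGUAAucacuguuuuugcc

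How a read that matches several members was counted is not stated, and the counts themselves bear on it. miR-548aa and miR-548t-3p had the same count in each of the 6 libraries, from 29 to 448. The same held for miR-548c-5p with miR-548o-5p (7 to 58 counts) and for miR-548h-3p with miR-548z (4 to 85 counts). The 3 members with the identical 5p sequence had totals of 475 (miR-548g-5p), 463 (miR-548x-5p) and 454 counts (miR-548aj-5p) over the 6 libraries, close to each other but not equal. Such rows are not separate measurements, and counts of members given here include them. The values of single members can therefore be values of a sequence shared between copies, and are not assigned to 1 locus.

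Library totals ran from 3291500 counts (resistant replicate 3) to 12563945 counts (sensitive replicate 1). Resistant replicate 3 stood apart. Its log2 CPM correlated with those of the other resistant libraries across miRNAs at r = 0.864 and 0.875, against 0.978 or more within the sensitive group, and miR-92a-3p took 58.6% of its counts against 10.5% to 20.2% elsewhere. CPM are counts scaled to a common library size, here the library total multiplied by its trimmed mean of M values (TMM) factor. Erythroid and myeloid miRNAs were present in every library, with miR-451a at 51.4 CPM or more and miR-142-3p at 615 CPM or more. Their levels did not move together. Erythroid miR-486-5p ranged from 4743 to 6214 CPM over the sensitive and from 9579 to 63289 CPM over the resistant libraries. Myeloid miR-223-3p ranged from 2000 to 3025 CPM and from 185 to 1157 CPM, and miR-142-3p and miR-142-5p were also lower without overlap. The groups overlapped for erythroid miR-451a, miR-144-3p and miR-144-5p. Among miRNAs known from other cell types, miR-205-5p of epithelium, miR-133a-3p of muscle and miR-124-3p of neurons were at or near 0 (at most 0.393 CPM), and miR-122-5p of liver did not pass 6.32 CPM. Others were present, some at levels that did not overlap between the groups. miR-145-5p, known from fibroblasts and muscle, ranged from 82.5 to 99.9 CPM over the sensitive and from 22.8 to 29.1 CPM over the resistant libraries, and miR-143-3p from 10.2 to 24.4 CPM and from 13.7 to 111 CPM. miR-9-5p, known from neurons, ranged from 2623 to 6893 CPM over the sensitive and from 223 to 1113 CPM over the resistant libraries, and miR-200c-3p of epithelium from 79.5 to 102 CPM and from 294 to 437 CPM. Their part in the results was not tested. The tested miR-548 members sat low in resistant replicate 3. Of the 51 tested members, 47 were lower there than the mean of resistant replicates 1 and 2, with a median log2 difference of -1.39 against -0.31 over all 768 tested miRNAs. Results are therefore given with and without this library.

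Detection of the family was broad and shallow. Of the 81 members, 50 had a count in all 6 libraries, 28 in some and 3 in none. The 3 without a count were miR-548ao-5p, miR-548f-5p and miR-548v, for which a count of 0 allows up to 3 counts per library, which is 0.239 to 0.911 CPM without TMM factors (counting error only). Sensitive replicates 1 to 3 held 73, 75 and 69 members, and resistant replicates 1 to 3 held 70, 75 and 50. Resistant replicate 3 was the low library, and the other 5 overlapped between the groups. Depth was the lowest there, so each library was thinned to 3291500 counts by the hypergeometric expectation. The expected numbers were then 65.1, 68.2 and 66.8 in sensitive replicates 1 to 3 and 63.5, 68.0 and 50 in resistant replicates 1 to 3, so resistant replicate 3 was the lowest at an equal library total too. Equal totals left this library fewer counts outside miR-92a-3p than the others, so each library was also thinned to 1361172 counts outside miR-92a-3p, an alternative added after the data were seen. The expected numbers were then 60.2, 62.7 and 62.7 in sensitive and 59.3, 62.4 and 50 in resistant replicates 1 to 3. Over all 2656 rows this library was not low in the same way, with 43.0% of rows detected against 42.2% in sensitive replicate 3, whereas 61.7% of the miR-548 members were detected against 85.2%.

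The family made up a small part of each library. Its summed counts were 0.196%, 0.228% and 0.211% of all counts in sensitive replicates 1 to 3, and 0.129%, 0.149% and 0.0355% in resistant replicates 1 to 3. Exact 95% binomial intervals were 0.194% to 0.199%, 0.225% to 0.231% and 0.207% to 0.215% in the sensitive and 0.126% to 0.131%, 0.146% to 0.151% and 0.0335% to 0.0376% in the resistant libraries, and they cover counting error only. Outside miR-92a-3p the shares were 0.227%, 0.255% and 0.246% in sensitive and 0.161%, 0.180% and 0.0858% in resistant replicates 1 to 3, so the value of resistant replicate 3 was the one that depended most on that miRNA. All 3 resistant libraries lay below all 3 sensitive ones on both bases, with means of all counts of 0.104 ± 0.0604% against 0.212 ± 0.0160% (SD, n = 3 each). In a bulk sample, fewer cells that hold a miRNA and less of it per cell cannot be told apart. The leading member differed between the groups. miR-548x-3p ranked first in each sensitive library, with 26.8% to 31.9% of the miR-548 counts, and 11th, 15th and 20th in resistant replicates 1 to 3. miR-548o-3p held 10.9% to 19.2% in sensitive libraries and ranked first in each resistant library, with 19.0% to 23.1%. Without miR-548x-3p the shares were 0.150 ± 0.00802% in sensitive and 0.102 ± 0.0585% in resistant libraries, and the 75 members not called in the test described next held 0.124%, 0.144% and 0.0349% in resistant replicates 1 to 3 against 0.133% to 0.147% in the sensitive group. Resistant replicate 2 then lay within the sensitive range and resistant replicates 1 and 3 below it.

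**Figure D1:**
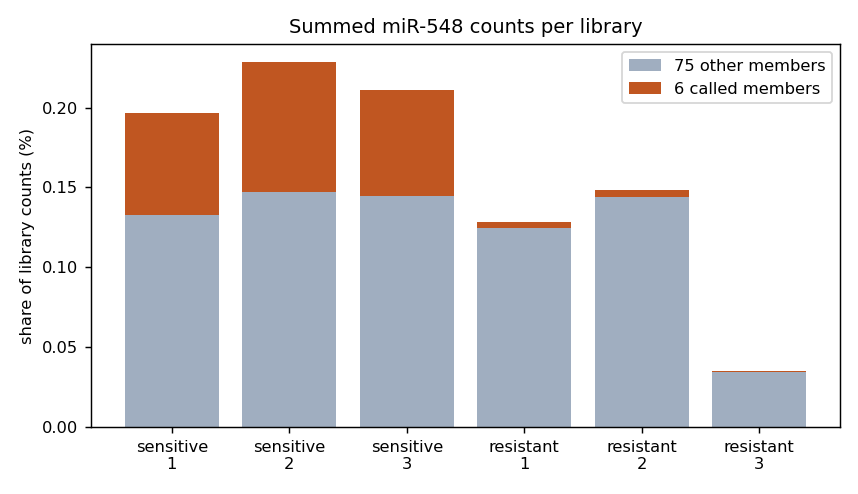
Share of each library's counts (y axis, percent) taken by the miR-548 family, 1 bar per library, split into the 6 members called lower in resistant cells and the 75 others. The called members held 0.0635% to 0.0813% in sensitive libraries and at most 0.00470% in resistant ones, and the total was lowest in resistant replicate 3 at 0.0355%.

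In the test across all miRNAs, 6 miR-548 members fell in resistant cells and 0 rose. They were miR-548x-3p, miR-548aj-3p and miR-548ae-3p from 3p arms, and miR-548x-5p, miR-548g-5p and miR-548aj-5p, which share 1 sequence, from 5p arms. Their levels dropped 11.9-fold to 30.6-fold. The test was edgeR's quasi-likelihood F test with Benjamini-Hochberg adjustment over the 768 miRNAs that passed the filter on low counts, at an adjusted p of 0.05. Of the 81 members, 51 passed that filter, and the 6 that fell are 11.8% of them, where 2.08% of all tested miRNAs were lower. At the filter's level, only miR-548x-3p of the 6 would have passed on the resistant libraries alone. The other rows had 0 to 3 counts in resistant replicate 3 and passed through the sensitive group, where they were high. The share of 11.8% is therefore given as a value only. With 3 of the 6 rows holding 1 sequence, the calls stand for 4 distinct sequences. Of 45 tested members that did not pass, 42 had a negative and 3 a positive log2 fold change. Over all 768 tested miRNAs, called or not, 413 had a negative one. Some members share sequence or counts, so their signs are not separate measurements. An unadjusted p under 0.05 was found for 13 members with a negative log2 fold change (25.5%) and 0 with a positive one. Over all tested miRNAs it was found for 205 in either direction, of which 77 (10% of those tested) had a negative log2 fold change. DESeq2 called 9 members lower and 0 higher (6.64% and 12.8% of all tested miRNAs), and limma-voom 6 lower and 0 higher (2.47% and 2.73%).

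miR-548x-3p was the member with the largest difference. It had 6966, 7438 and 3200 counts in sensitive replicates 1 to 3, which is 580, 759 and 592 CPM, and 272, 397 and 12 counts in resistant replicates 1 to 3, which is 27.7, 29.9 and 4.71 CPM. Every resistant library lay far below every sensitive one, and resistant replicate 3 was the lowest. The log2 fold change, resistant over sensitive, was -4.93 with an approximate SE of 0.73 (edgeR adjusted p = 0.0154). Its 2 RefSeq hairpins are MIR548X on the minus strand of chromosome 21 (18686090 to 18686164), in an intron of the long non-coding MIR548XHG, and MIR548X2 on the minus strand of chromosome 13 (65966330 to 65966429), between annotated genes. Coordinates are RefSeq GRCh38.p14 and gene overlaps are from GENCODE 29, also on GRCh38.

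miR-548aj-3p had 100, 131 and 65 counts in sensitive and 5, 8 and 3 counts in resistant replicates 1 to 3. The groups did not overlap, and per library size resistant replicate 3, at 1.18 CPM, was the highest of the resistant libraries. The mean level was 11.2 ± 2.62 CPM (SD, n = 3) in the sensitive and 0.763 ± 0.362 CPM (SD, n = 3) in the resistant group, a log2 fold change of -4.02 with an SE of 0.54 (edgeR adjusted p = 0.00965). Its hairpins are MIR548AJ1 on chromosome 6 (132115192 to 132115263, minus strand), between annotated genes, and MIR548AJ2 on chromosome X (38023895 to 38023986, minus strand), in an intron of SYTL5 and of AF241726.2, both on the opposite strand.

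miR-548ae-3p had 309, 281 and 221 counts in sensitive and 33, 40 and 3 counts in resistant replicates 1 to 3. In CPM these were 25.7, 28.7 and 40.9 against 3.36, 3.02 and 1.18, again without overlap. The log2 fold change was -3.58 with an SE of 0.52 (edgeR adjusted p = 0.0143). Its hairpins, MIR548AE1 on chromosome 2 (184378975 to 184379044, plus strand) and MIR548AE2 on chromosome 5 (58530043 to 58530109, minus strand), lie between annotated genes.

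The shared 5p sequence showed the same pattern under each of its names. miR-548g-5p had 202, 151 and 93 counts in sensitive and 12, 17 and 0 counts in resistant replicates 1 to 3. miR-548x-5p had 202, 145 and 88 against 11, 17 and 0, and miR-548aj-5p had 195, 140 and 88 against 10, 21 and 0. The 3 rows were lowest in resistant replicate 3, where 0 counts allow up to 0.911 CPM without TMM factors, and the groups did not overlap in any of them. In the order given, their log2 fold changes were -4.04 with an SE of 0.68 (edgeR adjusted p = 0.0195), -4.05 with an SE of 0.68 (edgeR adjusted p = 0.0195) and -3.90 with an SE of 0.70 (edgeR adjusted p = 0.0226). When they were summed into 1 row before the fit, the log2 fold change was -4.12 and the row missed the threshold (edgeR adjusted p = 0.0502). Without resistant replicate 3 the summed row passed (log2 fold change -3.59, edgeR adjusted p = 3.77e-06), a check added after the data were seen. MIR548G lies on chromosome 4 (147344629 to 147344717, minus strand), between annotated genes, and MIR548X and MIR548AJ2 are the hairpins named for the 3p members. The sequences of both arms of these last 2 hairpins are thus among the calls. Each of these sequences is also made by another hairpin, so the calls are not assigned to either hairpin.

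**Figure D2:**
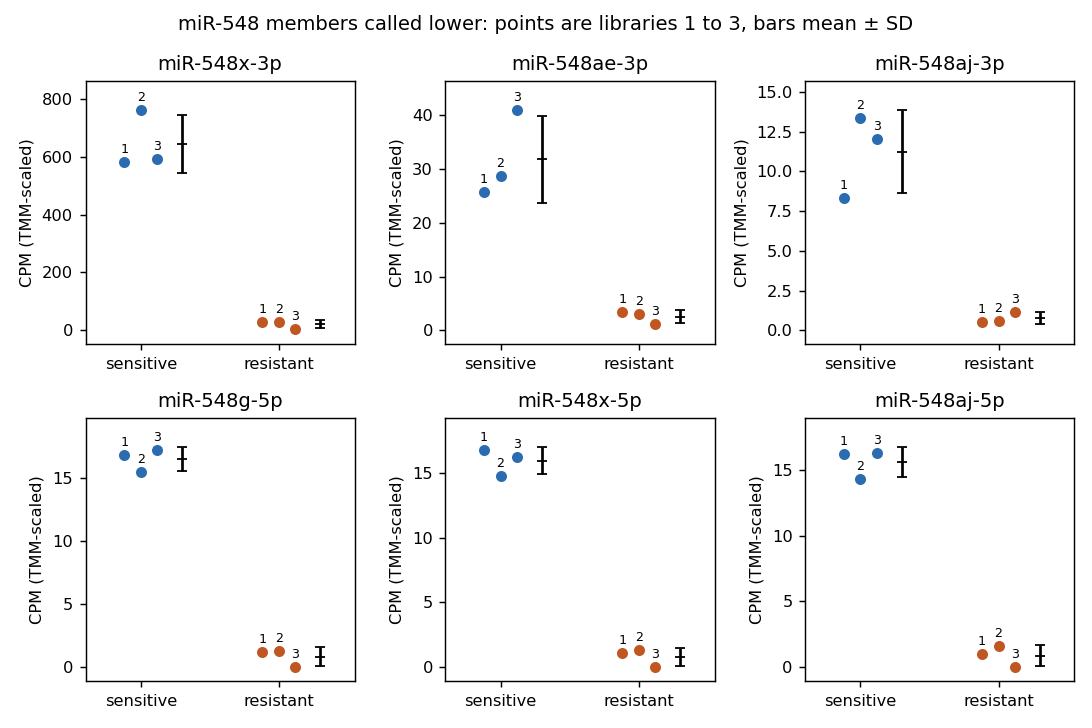
Levels (y axis, CPM with TMM factors) of the 6 miR-548 members called lower, with 1 point per library numbered by replicate and the mean ± SD of 3 libraries beside each group. In each panel all resistant libraries lie below all sensitive ones, and in the 3 panels of the lower row resistant replicate 3 is at 0.

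Each of the 6 calls was lost, with its direction kept, when sensitive replicate 1, 2 or 3 or resistant replicate 1 was left out, where 0 members passed. miR-548x-3p then had log2 fold changes of -5.10 to -4.72 (edgeR adjusted p = 0.0581 to 0.0985). All 6 passed without resistant replicate 2 and without resistant replicate 3.

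Both arms of the miR-548x hairpin can be set side by side. In sensitive replicates 1 to 3 the 3p arm had 34.5, 51.3 and 36.4 counts for each count of the 5p arm, and in resistant replicates 1 and 2 it had 24.7 and 23.4. The 5p arm had 0 counts in resistant replicate 3, so no ratio is given there. Since both arms are shared with other hairpins, these are ratios of sequences. In resistant replicates 1 to 3 miR-548x-3p made up 2.55%, 2.51% and 1.03% of the miR-548 counts.

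Members with the same seed did not all pass. Of the 7 tested members with the seed of miR-548x-3p, 3 passed as lower, where 2.08% of all tested miRNAs were lower. The other 4 had negative log2 fold changes and did not pass. miR-548aq-3p, the fourth in the sequences shown, had 621, 555 and 409 counts in sensitive and 385, 624 and 34 counts in resistant replicates 1 to 3. That is 51.7, 56.7 and 75.7 CPM against 39.2, 47.1 and 13.4 CPM, so the groups did not overlap but only resistant replicate 3 was far from the sensitive libraries. The log2 fold change was -0.88 with an SE of 0.52 (edgeR adjusted p = 0.302). miR-548am-3p (-0.81, edgeR adjusted p = 0.243), miR-548ah-3p (-0.97, edgeR adjusted p = 0.237) and miR-548j-3p (-1.47, edgeR adjusted p = 0.122) had smaller log2 differences than the 3 that fell. Their groups did not overlap either, with resistant lower, as for 22.9% of all tested miRNAs. DESeq2 called miR-548j-3p lower, where it called 6.64% of all tested miRNAs lower. With their counts summed into 1 row, the 7 members had a log2 fold change of -2.72 (edgeR adjusted p = 0.0276), a sum in which miR-548x-3p had most counts in the sensitive libraries but 272 of 1498, 397 of 2277 and 12 of 154 counts in resistant replicates 1 to 3.

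The length of sequence shared with miR-548x-3p was compared too, as a description. miR-548ae-3p and miR-548aj-3p share a run of 19 bases with it, miR-548aq-3p 18 and miR-548u 14, and the other matched 3p members 11 or fewer. The 2 members with 19 shared bases had log2 fold changes of -3.58 and -4.02, and miR-548aq-3p, with 1 base fewer, had -0.88. miR-548u had -1.39 (edgeR adjusted p = 0.224). The differences between these fold changes were not tested, and reads of miR-548x-3p counted for a near-identical member cannot be told apart from that member's own reads.

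**Figure D3:**
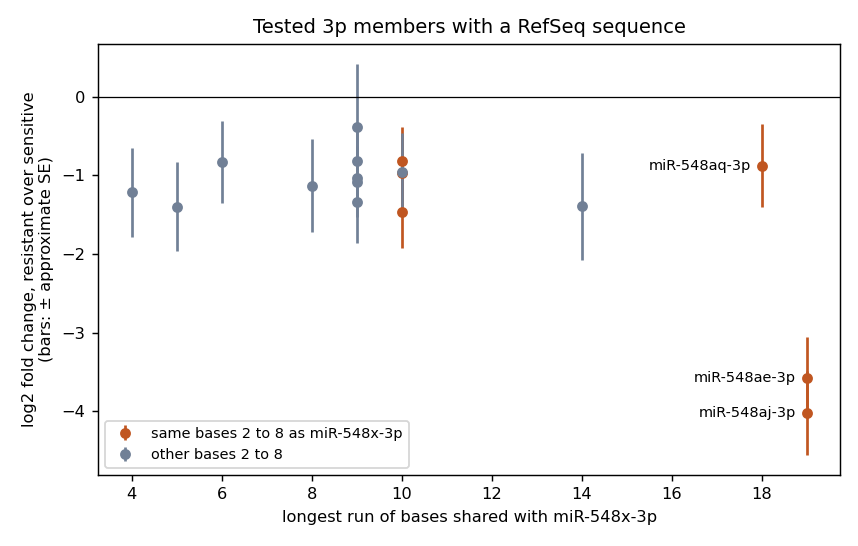
Log2 fold change, resistant over sensitive, with its approximate SE (y axis) against the longest run of bases shared with miR-548x-3p (x axis) for the tested 3p members with a RefSeq sequence, miR-548x-3p itself left out. The 2 members with 19 shared bases lie at -3.58 and -4.02, and miR-548aq-3p with 18 lies at -0.88 among the others.

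The abundant members outside this sequence group did not pass. miR-548o-3p had 3202, 2535 and 2294 counts in sensitive and 2028, 3022 and 270 counts in resistant replicates 1 to 3. Its CPM were 266, 259 and 424 against 206, 228 and 106, without overlap, although resistant replicate 2 was close to sensitive replicates 1 and 2. The log2 fold change was -0.81 with an SE of 0.45 (edgeR adjusted p = 0.267). miR-548d-5p, at 88.5 ± 13.6 against 67.8 ± 36.5 CPM, overlapped between groups (log2 fold change -0.38, edgeR adjusted p = 0.654). miR-548k stood at 99.0 ± 26.1 against 57.9 ± 33.0 CPM (log2 fold change -0.77, edgeR adjusted p = 0.401), miR-548j-5p at 98.0 ± 27.7 against 53.3 ± 4.07 CPM (-0.88, edgeR adjusted p = 0.198) and miR-548bc at 102 ± 5.10 against 46.1 ± 28.7 CPM (-1.13, edgeR adjusted p = 0.243; SD, n = 3 each). The 3 members with a positive log2 fold change were miR-548q (0.78, edgeR adjusted p = 0.341), miR-548h-5p (0.37, edgeR adjusted p = 0.646) and miR-548l (0.15, edgeR adjusted p = 0.791).

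Larger seed groups can also be described as sums. The 11 matched 5p members with the seed of miR-548y and miR-548bb-5p had 2183, 2006 and 636 counts in sensitive and 1082, 1544 and 201 counts in resistant replicates 1 to 3. Per library size (CPM without TMM factors) these were 174, 197 and 112 against 130, 145 and 61.1, so that the groups overlapped. Of these 11, 6 were tested and 0 passed with edgeR: miR-548j-5p, miR-548b-5p (-0.54), miR-548ab (-0.13), miR-548ap-5p (-0.67), miR-548w (-1.01) and miR-548ar-5p (-1.58). The 3 matched 3p members miR-548bc, miR-548ar-3p (-1.33) and miR-548f-3p (-0.38) share another seed, and 0 of the 3 passed.

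The other tested members lay between these values. The groups did not overlap, with resistant lower, for miR-548a-3p (-1.89), miR-548at-3p (-1.40), miR-548h-3p and miR-548z (-1.34 each), miR-548b-3p (-1.21), miR-548av-3p (-1.08), miR-548s (-1.03), miR-548p (-0.96), miR-548ay-3p (-0.83), miR-548d-3p (-0.74), miR-548e-3p (-0.71) and miR-548t-5p (-0.51). They overlapped for miR-548at-5p (-0.84), miR-548i (-0.62), miR-548aa and miR-548t-3p (-0.51 each), miR-548ae-5p (-0.44), miR-548au-5p (-0.43), miR-548ad-5p (-0.42), miR-548ay-5p (-0.37), miR-548az-5p (-0.36), miR-548n (-0.34), miR-548am-5p (-0.26), and miR-548c-5p and miR-548o-5p (-0.25 each). These are log2 fold changes with all 6 libraries. Most of the members with separate groups were from 3p arms, and most of those that overlapped were from 5p arms, a split that was not tested. The edgeR adjusted p of the 45 members that did not pass ran from 0.122 to 0.875.

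Over the 51 tested members the median log2 fold change was -0.81, and over all 768 tested miRNAs it was -0.11. With library totals in place of TMM factors the medians were -0.57 and 0.09, so leaving out TMM factors moved both medians up. Of the 51 members, 47 still had a negative log2 fold change, against 48 with TMM factors. With TMM factors 413 of all 768 tested miRNAs had a negative one. The groups did not overlap for 28 of the 51 members with resistant lower (54.9%, against 22.9% of all tested miRNAs) and for 1 with resistant higher, miR-548q (18.9% of all tested). A member that passed the filter did so through its level in at least 3 libraries, which can be the 3 sensitive ones alone. These shares are given as values only and do not speak for the 30 members that were not tested. miR-548 members were poor in G and C. RefSeq gave a GC content for 33 of the 51 tested members (64.7%), with a median of 33.3% against 47.8% over the tested miRNAs that had one. As fewer than 80% of the members had a value, a check of GC content over the family is void. For the 33 members, offsets that take out the relation of each library's deviations to GC content left 21 with a negative log2 fold change, with a median of -0.26. With these offsets 5 members were lower and 0 higher (4.73% and 5.61% of the miRNAs tested in that fit). The 5 were miR-548x-3p (-3.99, edgeR adjusted p = 0.000199), miR-548ae-3p and the 3 rows of the shared 5p sequence. miR-548aj-3p had -3.25 (edgeR adjusted p = 0.0662).

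**Figure D4:**
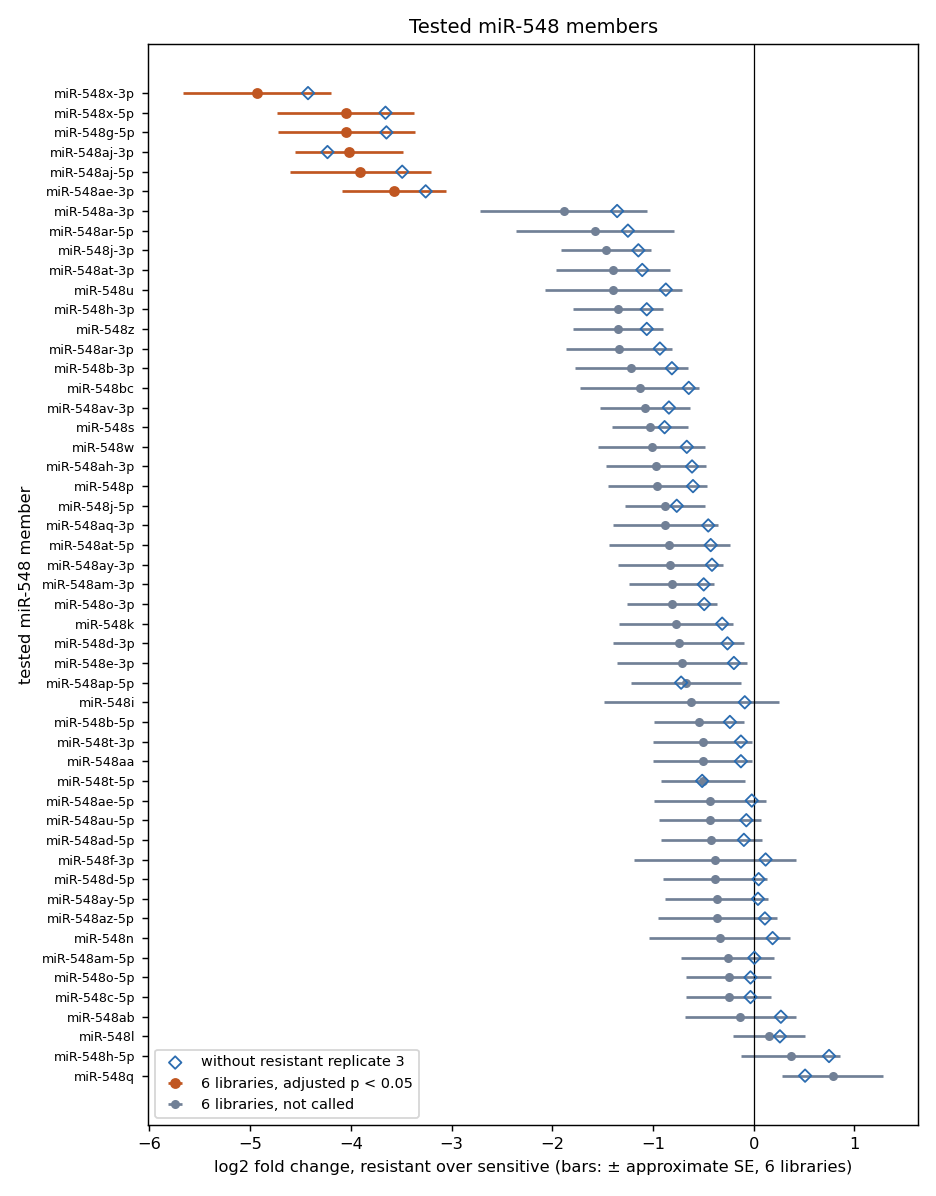
Log2 fold change, resistant over sensitive (x axis), of each of the 51 tested miR-548 members (y axis, ordered), as filled points with the approximate SE from 6 libraries and as open diamonds without resistant replicate 3. The 6 called members lie from -4.93 to -3.58, apart from the 45 others, which lie from -1.89 to 0.78, and the median of these 51 members is -0.81 with all libraries and -0.49 without resistant replicate 3.

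Without resistant replicate 3 more members passed. Of 56 members then tested, 14 were lower (25%, where 14.4% of all tested miRNAs were lower) and 1 was higher (13.7% of all tested miRNAs were higher). The groups did not overlap for 28 members with resistant lower and 5 with resistant higher (25.8% and 27.3% of all tested). The 14 included the 6 that fell with all libraries, at log2 fold changes of -4.43 to -3.26. miR-548x-3p was at -4.43 with an SE of 0.27 (edgeR adjusted p = 3.68e-07). Of the 8 others, 7 had log2 fold changes between -1.36 and -0.87. They were miR-548a-3p (-1.36, edgeR adjusted p = 0.0107), miR-548j-3p (-1.14, edgeR adjusted p = 0.00875), miR-548h-3p and miR-548z, which are 1 set of counts (-1.06, edgeR adjusted p = 0.0217), miR-548ar-3p, miR-548s and miR-548u. All 7 are from 3p arms or have no arm given. miR-548a-3p, for one, had 118, 91 and 84 counts in sensitive and 38, 62 and 0 counts in resistant replicates 1 to 3, with resistant replicate 3 again the lowest. The eighth was miR-548bb-5p, with 9, 16 and 11 counts in sensitive and 0, 3 and 0 in resistant replicates 1 to 3 (log2 fold change -3.25, edgeR adjusted p = 0.0152), too few counts to be tested with all libraries. Its hairpin MIR548BB lies in an intron of FHIT on chromosome 3. miR-548y was the 1 higher member, with 4, 9 and 4 counts in sensitive and 18, 26 and 2 in resistant replicates 1 to 3 (log2 fold change 1.62 with an SE of 0.51, edgeR adjusted p = 0.0325). In CPM, resistant replicate 3 fell among the sensitive libraries for miR-548y, at 0.785 against 0.333 to 0.919. miR-548y, miR-548bb-5p and miR-548aj-3p entered this fit only through the group in which they were high, so these calls are given as values only. Of these, miR-548aj-3p had 5 and 8 counts in resistant replicates 1 and 2. The 14 lower members and their share include miR-548bb-5p and miR-548aj-3p.

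The arms differed in how much of the family they held. The 34 members of 3p arms took 67.0%, 67.9% and 76.5% of the miR-548 counts in sensitive replicates 1 to 3 and 52.8%, 53.5% and 50.2% in resistant replicates 1 to 3. The 41 members of 5p arms took 30.6%, 29.7% and 21.7% against 43.8%, 42.9% and 47.0%, and 6 members had no arm in the name or in RefSeq. The groups did not overlap for either arm. The 3p sum includes miR-548x-3p, which alone took 28.2%, 31.9% and 26.8% of the miR-548 counts in sensitive replicates 1 to 3. In resistant replicates 1 to 3 it took 2.55%, 2.51% and 1.03%. The arm shares therefore carry the drop of this member and do not describe the other 3p members. Of the tested members, 3 of 23 from 3p arms and 3 of 25 from 5p arms fell, where 2.08% of all tested miRNAs were lower. The 3 from 5p arms are 1 sequence, whose summed row missed the threshold, so the arms cannot be compared by these counts.

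Of the 30 members that were not tested, 27 had a count somewhere and 18 had counts in at least 4 libraries. Besides miR-548y (63 counts in all) and miR-548bb-5p (39 counts), these were miR-548e-5p, miR-548ai, miR-548al, miR-548as-5p, miR-548ac, miR-548ag, miR-548az-3p, miR-548m, miR-548ax, miR-548an, miR-548c-3p, miR-548ak, miR-548g-3p, miR-548ah-5p, miR-548aq-5p and miR-548ao-3p, with 6 to 57 counts over the 6 libraries. The other 9 had counts in 1 to 3 libraries, with 1 to 6 counts in all: miR-548bb-3p, miR-548ap-3p, miR-548a-5p, miR-548av-5p, miR-548aw, miR-548au-3p, miR-548as-3p, miR-548ad-3p and miR-548ba. These levels were too low for the test with all libraries. miR-548g-3p, from the other arm of the MIR548G hairpin, had 1, 3 and 4 counts in sensitive and 2, 1 and 0 in resistant replicates 1 to 3. The row of its 5p partner, miR-548g-5p, had far more counts in sensitive cells. That row holds a sequence shared with miR-548x-5p and miR-548aj-5p, so the arms of this hairpin cannot be compared.

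The hairpins of the matched members are spread over the genome. RefSeq placed 51 hairpins on 21 chromosomes, of which 31 lay in an intron of a gene on the same strand and 14 between annotated genes. The 7 hairpins that could yield the 6 members that fell lie on 7 chromosomes. Among them MIR548X is the hairpin with an annotated host transcript on its strand.

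Other miRNAs from transposable elements were set beside the family, from lists chosen by general knowledge of their origin. Of 5 rows of the other MADE1-derived miRNAs (miR-570, miR-579 and miR-603), 3 were tested, and 0 passed with edgeR, DESeq2 or limma-voom, with 0 at an unadjusted p under 0.05. The most abundant was miR-579-5p, at a mean of 9.88 CPM in the sensitive and 19.1 CPM in the resistant libraries (log2 fold change 0.94, edgeR adjusted p = 0.237). The other 2 tested were negative, miR-570-3p at -0.62 (edgeR adjusted p = 0.492) and miR-579-3p at -0.72 (edgeR adjusted p = 0.501). The median log2 fold change of the 3 was -0.62. miR-570-5p was tested only without resistant replicate 3. It then had the same values as miR-548ai (log2 fold change -0.27 with an SE of 0.50, edgeR adjusted p = 0.754), so these rows may not be separate measurements. Of 36 rows of miRNAs from other elements, such as the LINE-2 remnants of miR-28 and miR-151a, 22 were tested, and 0 passed with edgeR, DESeq2 or limma-voom, with 0 at an unadjusted p under 0.05 (median log2 fold change -0.33). The most abundant of these, miR-151a-3p, was at a mean of 9019 CPM in the sensitive and 8689 CPM in the resistant libraries (log2 fold change -0.05, edgeR adjusted p = 0.93). Without resistant replicate 3, miR-340-5p fell (log2 fold change -0.84, edgeR adjusted p = 0.0125), 1 of 23 then tested, where 14.4% of all tested miRNAs were lower. Over all 768 tested miRNAs, edgeR called 16 lower and 16 higher (2.08% each), DESeq2 called 149 and limma-voom 40. An unadjusted edgeR p under 0.05 was found for 205. With so few edgeR calls over all miRNAs, 0 in lists of this size cannot set them apart. The difference between these lists and miR-548 was not tested.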

How the data were processed

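Small RNA of 6 K562 libraries, 3 sensitive and 3 resistant by their titles, had been prepared with a NEBNext kit after DNase treatment and sequenced on a NovaSeq instrument, per the labels' protocols. The authors deposited raw read counts per mature miRNA, whole numbers with totals that differ between libraries. The genome build was GRCh38 per the submitters' processing notes. Which programs aligned and counted the reads, against which miRBase release and with what treatment of reads with several matches, is not given in the sources used here.

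Counts were analysed in R 4.3.3 with edgeR 4.0.16 (filterByExpr, minimum count 10, minimum total count 15, TMM factors, quasi-likelihood F test without covariates, Benjamini-Hochberg adjustment over all tested miRNAs, threshold 0.05). An approximate SE was taken as the size of the log2 fold change over the root of F. Alternatives used DESeq2 1.42.0, limma-voom (limma 3.58.1), other scaling and filters, GC offsets, merged rows and fits that leave out a library. The fit was tested on simulated data. Sequences and hairpin positions are RefSeq's. The family and the lists were chosen with earlier results of these data known. The rule for members named took every tested member, untested ones with counts in at least 4 libraries, the most abundant of a seed group, and called or most abundant members of the other lists.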

Additional observations from a re-analysis of the deposited data

How the results depend on the processing

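The count of 6 members lower was within 1.5 times, with 0 higher, under RLE factors (6, where 1.56% of all tested were lower), library totals (6, 2.08%), no filter (8, 2.71%), DESeq2 (9), limma-voom (6) and GC offsets (5, of 33 members with a sequence). With a minimum mean of 10 CPM 2 were lower, with identical sequences merged 3 rows, and with the same arm and seed merged 1 row (1.27%, 1.31% and 0.93% of all tested were lower). Merging left fewer rows and also lost a call, since the summed 5p row missed the threshold both times (edgeR adjusted p = 0.0502 and 0.0591). Leaving out 1 library in turn gave 0 to 14 lower and 0 to 1 higher. The 0 came without sensitive replicate 1, 2 or 3 or resistant replicate 1, where 7 to 11 members (13.5% to 19.6%) were lower at an unadjusted edgeR p under 0.05, against 4.74% to 6.74% of all tested, and at most 0.375% of all tested were lower at the adjusted threshold. Over those 6 fits miR-548x-3p ranged from -5.18 to -4.43 and each of the 6 members passed in 2. Over all alternatives its edgeR, DESeq2 or limma-voom adjusted p ran from 1.16e-12 to 0.0985. Leaving out resistant replicate 3 together with GC offsets gave 8 lower and 1 higher (15% and 12.1% of all tested). Deviations from the group means correlated at r = -0.06, 0.26 and 0.13 for libraries with the same replicate number. For different numbers r ran from -0.24 to 0.2. With so few libraries these values cannot show whether replicate numbers pair the libraries. With the replicate number as a block 6 members were lower and 0 higher (1.95% and 1.04% of all tested), and with GC offsets as well 5 and 0 (2.36% and 2.07%).

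Members not called in either fit changed sign as follows, and the cause was not tested. With library totals miR-548ab was at 0.13. With GC offsets the log2 fold changes were 0.84 (miR-548ab), 0.27 (miR-548am-3p), 0.51 (miR-548ap-5p), 0.0049 (miR-548aq-3p), 0.28 (miR-548b-5p), 0.46 (miR-548f-3p), 0.18 (miR-548j-5p), 0.41 (miR-548n), 0.034 (miR-548p) and 0.17 (miR-548t-5p). With the replicate block and GC offsets they were 0.82 (miR-548ab), 0.19 (miR-548am-3p), 0.27 (miR-548ap-5p), 0.032 (miR-548aq-3p), 0.26 (miR-548b-5p), 0.41 (miR-548f-3p), 0.40 (miR-548n), 0.042 (miR-548p) and 0.12 (miR-548t-5p). Without resistant replicate 3 and with GC offsets they were 0.58 (miR-548ab), 0.50 (miR-548f-3p) and 0.49 (miR-548n). Leaving out 1 library gave ranges of -0.39 to 0.27 (miR-548ab), -0.35 to 0.0079 (miR-548am-5p), -0.56 to 0.044 (miR-548ay-5p), -0.70 to 0.11 (miR-548az-5p), -0.60 to 0.050 (miR-548d-5p), -0.73 to 0.12 (miR-548f-3p) and -0.60 to 0.19 (miR-548n).

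The mean share of the family in sensitive libraries was 0.212%, 0.150% without miR-548x-3p and 0.243% of the counts outside miR-92a-3p. In resistant libraries these were 0.104%, 0.102% and 0.142%, and resistant replicate 3 went from 0.0355% to 0.0858% outside miR-92a-3p. The mean number of members detected in sensitive libraries was 72.3, 66.7 after thinning, 61.9 after thinning outside miR-92a-3p and 65 with at least 3 counts. In resistant libraries it was 65, 60.5, 57.2 and 56.3.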

Other observations

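Other miRNAs of chromosome 21 were looked at after the values of miR-548x-3p had been seen, because MIR548X lies there. Tested miRNAs with a RefSeq hairpin on this chromosome, besides both arms of miR-548x, were miR-99a-5p, let-7c-5p, miR-125b-5p, miR-125b-2-3p, miR-3118 and miR-6724-5p. miR-99a-5p, which starts 2146989 bases from the start of the MIR548X hairpin, fell from a mean of 370 to 16.5 CPM (log2 fold change -4.48, edgeR adjusted p = 0.00219). miR-125b-5p, which a hairpin on another chromosome also makes, fell from a mean of 30.3 to 1.72 CPM (-4.14, edgeR adjusted p = 0.00219). miR-125b-2-3p had means of 2.84 and 0.261 CPM and did not pass (-3.02, edgeR adjusted p = 0.0569). Without resistant replicate 3 it passed (-2.70, edgeR adjusted p = 0.00657). It met the filter on low counts only through the sensitive libraries, where it was high, so these are given as values only. let-7c-5p, from a hairpin beside that of miR-99a, rose from a mean of 116 to 773 CPM (2.73, edgeR adjusted p = 0.0467), and passed without resistant replicate 3 too (edgeR adjusted p = 2.36e-05). Its sequence is near that of other let-7 members, so its counts are uncertain. miR-3118 (-0.59, edgeR adjusted p = 0.514) and miR-6724-5p (2.17, edgeR adjusted p = 0.148) did not pass.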
